A study of Sus scrofa with 12 samples.

Results

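The collagen genes of longissimus dorsi, the loin muscle, were the rows of the gene count tables whose pig Ensembl symbol reads COL, a number, A and a number. They came to 38 genes of 25880 gene rows, 14857 of which carried a symbol. The muscle came from 12 castrated male Iberian pigs that were kept outdoors on acorns and grass before slaughter, 6 with a high breeding value for myoglobin (High MB) and 6 with a low one (Low MB), with 1 library per pig. All 12 pigs belonged to 1 closed commercial population and were chosen as extremes of the breeding value with full siblings avoided. No transgene or drug treatment is stated for them. The groups were chosen to differ in inherited merit for myoglobin, and may differ in whatever goes with it. Myoglobin content was 2.48 ± 0.0657 mg/g (SD, n = 6) in High MB and 1.39 ± 0.147 mg/g (SD, n = 6) in Low MB pigs.

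Collagens are the structural proteins of the connective tissue that wraps muscle fibres, bundles and the whole muscle. 3 alpha chains wind into a triple helix, and the helix requires a glycine at the first residue of every Gly-X-Y triplet. Fibrillar collagens form the cable-like fibrils that give muscle its tensile strength, basement membrane collagens form a sheet around each fibre and capillary, network collagens form beaded filaments or lattices between them, and fibril-associated collagens sit on the surface of fibrils. Fibroblasts are the main source of the fibrillar chains in muscle. In bulk tissue, more cells of a type and more RNA per cell cannot be told apart.

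The defining repeat can be read in the genes themselves. The exons below are 54 bases long and each holds 6 Gly-X-Y triplets, with capitals for the glycine codon that opens each triplet. COL12A1 and COL14A1 hold a further glycine codon, in lower case, at an X position. They are shown because they let the fibril-forming chains be compared with a basement membrane chain and with the fibril-associated chains COL12A1 and COL14A1. They were read from the pig genome Sscrofa11.1 with the RefSeq annotation, from COL1A1 at chr12:26393098-26393151 on the minus strand, COL1A2 at chr9:74184187-74184240 on the plus strand, COL3A1 at chr15:93571887-93571940 on the plus strand, COL4A2 at chr11:77119322-77119375 on the plus strand, COL12A1 at chr1:90855810-90855863 on the plus strand and COL14A1 at chr4:18756895-18756948 on the minus strand.
COL1A1: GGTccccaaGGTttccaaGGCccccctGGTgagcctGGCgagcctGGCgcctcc
COL1A2: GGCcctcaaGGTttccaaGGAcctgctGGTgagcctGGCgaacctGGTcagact
COL3A1: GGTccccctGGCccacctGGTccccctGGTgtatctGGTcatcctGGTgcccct
COL4A2: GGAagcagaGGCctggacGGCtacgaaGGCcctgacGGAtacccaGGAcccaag
COL12A1: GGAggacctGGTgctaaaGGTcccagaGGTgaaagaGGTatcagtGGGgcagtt
COL14A1: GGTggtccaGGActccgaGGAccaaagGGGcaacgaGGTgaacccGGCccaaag
The exons of COL1A1 and COL1A2, each coding exon 8 of its gene, had 42 of 54 bases in common (77.8%). The exons of COL12A1 and COL14A1 had 27 of 54 bases in common, fewer than COL14A1 had with COL1A2 (31) or COL1A1 (29). The exon of COL4A2 had from 19 (COL12A1) to 26 (COL14A1) bases in common with the other exons shown.

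Across the 37 collagen genes with a RefSeq model, the types differed in exon sizes and in the length and number of runs of this repeat. The share of coding sequence in runs overlapped between types. It was 53.69% to 77.75% in fibrillar, 57.02% to 78.82% in basement membrane and 7.98% to 84.96% in fibril-associated genes. The plot of exon sizes against Gly-X-Y content shows each model. In the 11 fibrillar genes, 62.3% to 82.4% of coding exons were 45, 54 or 99 bases long or a small multiple of 54, the sizes of the collagen repeat. Their longest uninterrupted run of Gly-X-Y triplets held 174 to 343 triplets, with 338 in COL1A1, 339 in COL1A2 and 343 in COL3A1. The basement membrane genes had a longest run of only 39 to 66 triplets and between 19 and 27 separate runs. In COL12A1 and COL14A1 the longest run was 32 triplets, and 7.98% and 14.0% of the coding sequence lay in runs, since most of these proteins consists of other domains. COL8A1 and COL8A2, which encode short-chain network collagens, had 2 coding exons each.

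**Figure D1:**
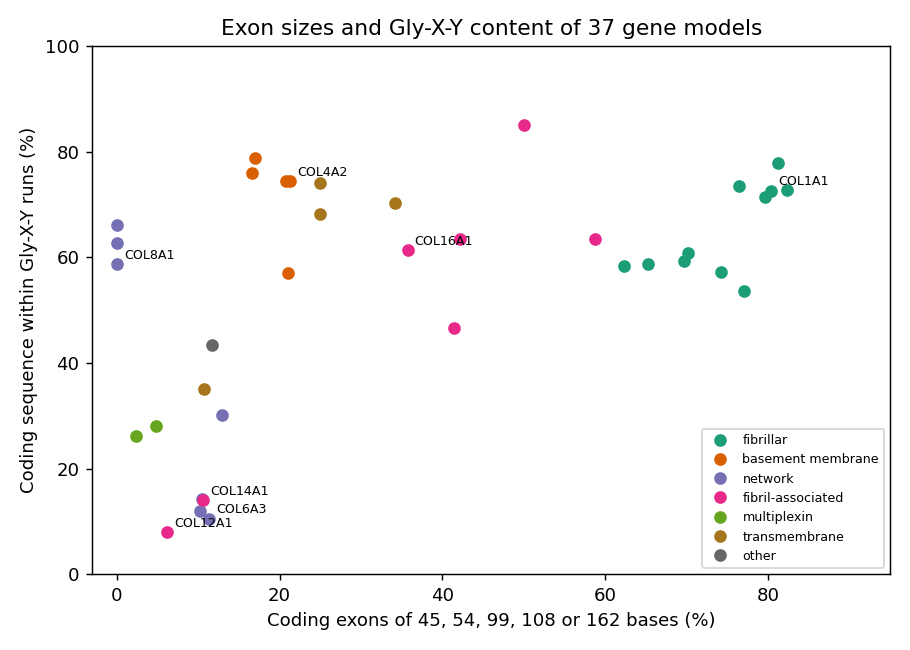
Share of coding exons with a collagen repeat size (horizontal axis, percent) against the share of coding sequence in Gly-X-Y runs (vertical axis, percent), 1 point per RefSeq gene model, coloured by collagen type. The 11 fibrillar genes lie at the right, and COL12A1 and COL14A1 at the lower left.

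The libraries held 38914271 to 91318334 gene counts. They fall into a deep class of 5 libraries over 50000000 (High MB pigs 4 and 6, Low MB pigs 1, 5 and 6) and a standard class of 7. In clustering on all tested genes, High MB pig 2 and Low MB pig 4 formed a small branch of their own. Among deep libraries 1 of the 32 collagen genes tested, COL23A1, had a fold change of the opposite sign to that over all pigs, and among standard libraries 6 did, COL13A1, COL24A1, COL28A1, COL4A6, COL6A5 and COL8A1. With High MB pig 2 and Low MB pig 4 left out none did. Each library is a different pig.

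Collagen genes took 0.0739% to 0.199% of gene counts in a pig, 0.123% to 0.199% in High MB and 0.0739% to 0.169% in Low MB. The summed collagen level was 1636 ± 294 CPM (counts scaled to a library of 1000000, SD, n = 6) in High MB and 1249 ± 351 CPM in Low MB. The groups overlapped, with 3 of 6 High MB pigs above every Low MB pig. COL3A1, COL14A1, COL4A2, COL6A3, COL1A1 and COL1A2 carried 69.2% of all collagen counts, and the 10 most counted genes carried 90.9%. Of the 38 genes, 32 passed the filter on low counts. COL10A1, COL2A1, COL25A1, COL4A4, COL9A1 and COL9A3 did not, and COL4A1 and COL19A1 were not analysed here.

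Per kilobase of exon, COL3A1, the chain of reticular fibrils, stood highest at 70.4 ± 28.8 CPM per kilobase (SD, n = 12). It was the highest gene in 10 of 12 pigs, the exceptions being Low MB pigs 1 and 3, where COL14A1 stood higher. COL1A2 (23.0 ± 9.01), COL14A1 (22.3 ± 5.04), COL4A2 (21.2 ± 6.09), COL6A2 (20.3 ± 5.40) and COL1A1 (19.2 ± 7.84) followed, and over all pigs neighbours among these 5 genes did not differ beyond their spread, since the order held in 6 or 7 of 12 pigs. The order of COL14A1 and COL4A2 was not the same in the 2 groups, with COL14A1 higher in 2 of 6 High MB and 5 of 6 Low MB pigs. Nor was that of COL1A2 and COL14A1. COL1A2 lay above COL14A1 in 5 of 6 High MB pigs (28.6 ± 7.58 against 19.5 ± 4.56 CPM per kilobase, SD, n = 6) and in 1 of 6 Low MB pigs (17.4 ± 6.80 against 25.1 ± 4.09). COL15A1 lay at 13.7 ± 4.12 CPM per kilobase and COL6A3 at 13.0 ± 4.99. COL12A1 stood at only 0.383 ± 0.128 CPM per kilobase. COL6A1 had no RefSeq model and was left out of this order. The plot of levels shows each pig for the 15 genes described in full.

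**Figure D2:**
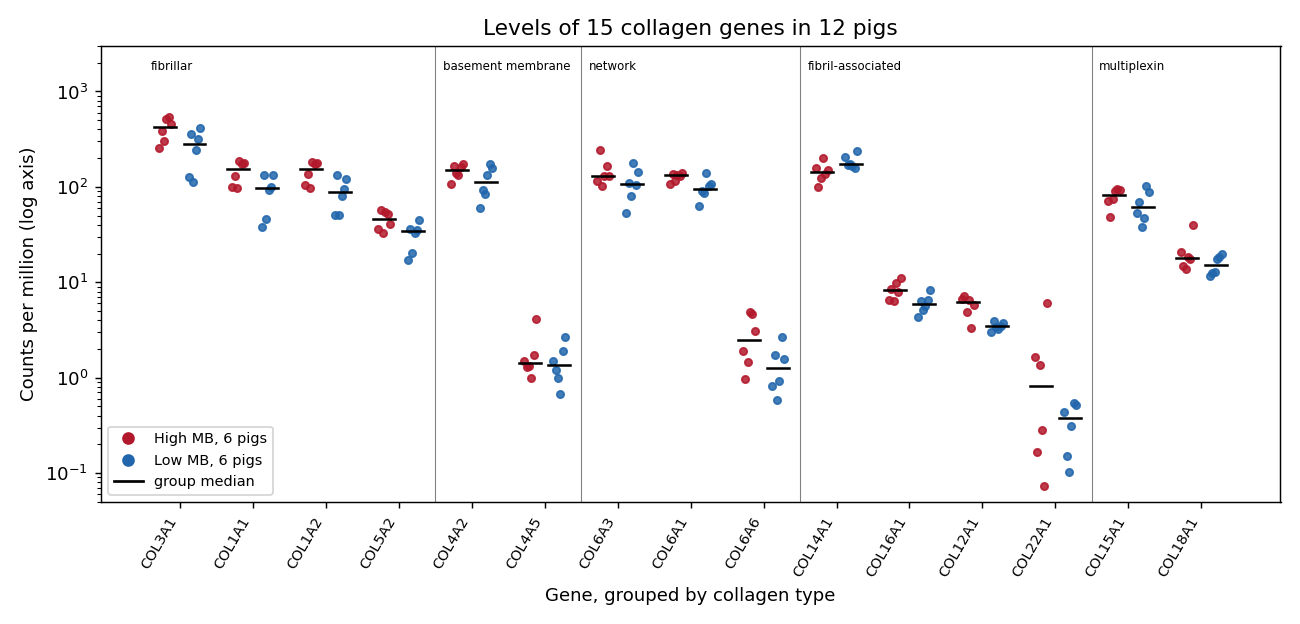
Levels of 15 collagen genes in CPM on a log axis, with 1 point per pig (High MB red, Low MB blue) and the group median as a bar, grouped by type. COL3A1 lies highest, and High MB pigs tend to lie above Low MB pigs in fibrillar genes while the reverse holds for COL14A1.

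The makeup of the collagen counts differed between pigs. Fibrillar genes gave 50.8 ± 4.45% of collagen counts in High MB pigs (SD, n = 6) and 42.4 ± 7.97% in Low MB pigs, whereas fibril-associated genes gave 10.1 ± 2.47% and 17.0 ± 6.13%. Network genes took 23.4 ± 3.84% and 24.0 ± 5.63%, and basement membrane genes 9.22 ± 1.36% and 9.46 ± 1.96%. COL4A1 was not analysed here, so the basement membrane share leaves that chain out. All shares are of the counts of the collagen genes analysed. Low MB pigs 1 and 3 had the lowest fibrillar shares, 35.1% and 33.7%, and the highest fibril-associated shares, 27.3% and 21.8%. The groups overlapped in both shares. These shares sum to 100% in each pig, so a higher share of 1 type lowers the others.

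**Figure D3:**
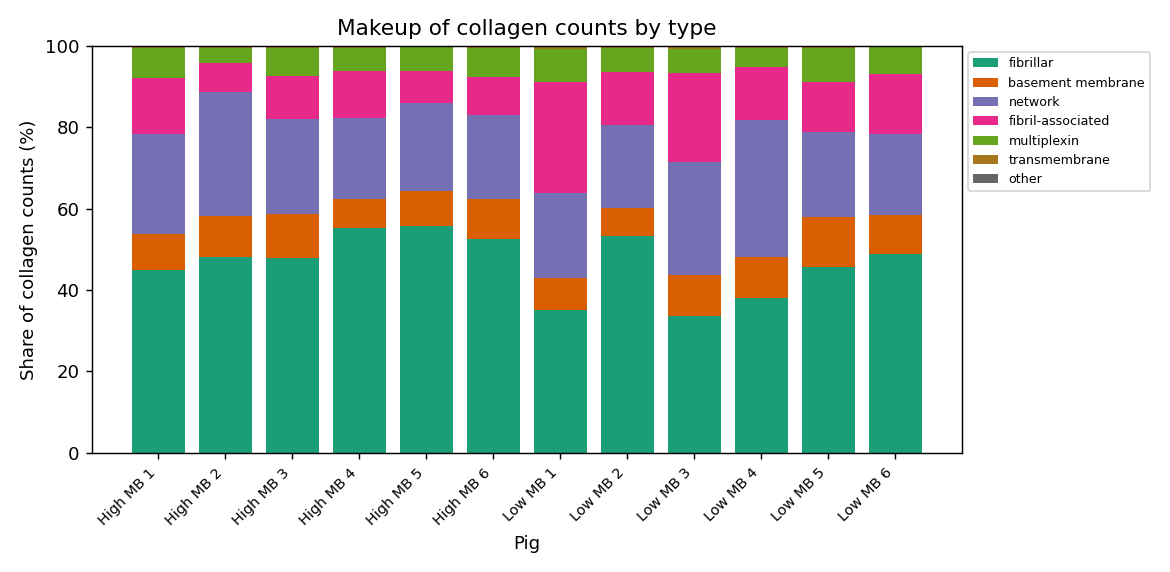
Share of collagen counts (percent) by collagen type in each of the 12 pigs, as stacked bars. COL4A1 is not included. Fibrillar genes hold the largest share in every pig, and Low MB pigs 1 and 3 have the smallest fibrillar and largest fibril-associated shares.

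The question behind the comparison was which genes differ in level between pigs of high and of low myoglobin merit. With edgeR, none of 13373 genes passed an adjusted p under 0.10 with an absolute log2 fold change over 0.58 (0% of genes), and so none of the 32 collagen genes did, the smallest adjusted p being 0.563. At an unadjusted p under 0.05 the fit gave 1132 genes, and DESeq2 called 29 of 14417 genes (0.201%), 1 of them a collagen, COL12A1. Collagen genes nevertheless lay mostly on the High MB side. The log2 fold change was above 0 in 27 of 32 (84.4%) against 46.9% of all genes tested, and its median was 0.36 against -0.02. An unadjusted p under 0.05 with a higher level in High MB was found for 8 of 32 (25%) against 5.33% of all genes, and with a lower level for 1 of 32 (3.13% of collagen genes and 3.13% of all genes). No collagen gene had groups without overlap, which 0.426% of all genes had. The 9 collagen genes with an unadjusted p under 0.05 became 3 without High MB pig 6, 4 without High MB pig 5, Low MB pig 1 or Low MB pig 3, 5 without High MB pig 4, 10 among deep libraries and 3 among standard libraries. Many of these genes varied together over the pigs, so the counts are not of independent tests. The plot of fold changes gives all 32 values.

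**Figure D4:**
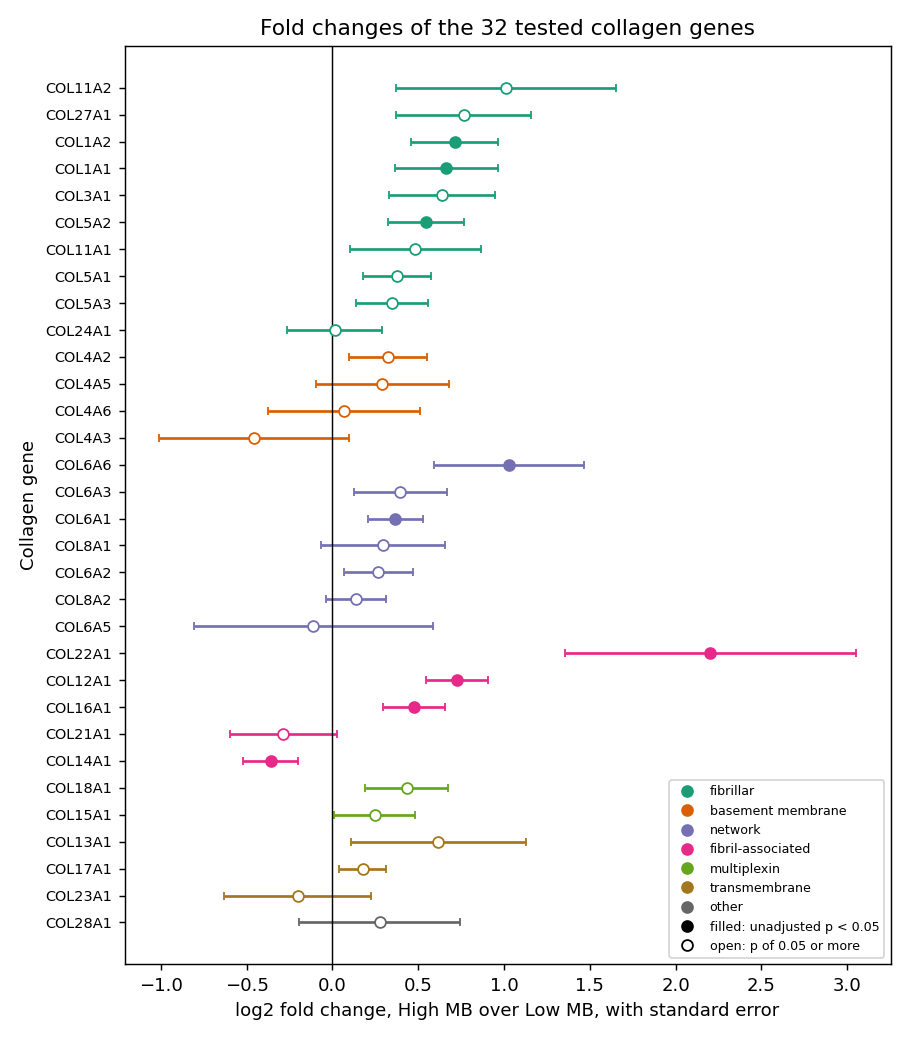
log2 fold change of High MB over Low MB with its standard error for the 32 collagen genes tested, coloured by type, filled where the unadjusted edgeR p was under 0.05. All 10 fibrillar genes lie above 0, and COL14A1 is the only filled point below 0.

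All 10 fibrillar genes tested had a log2 fold change above 0, with a median of 0.59 and a range from 0.01 (COL24A1) to 1.01 (COL11A2), and 3 had an unadjusted p under 0.05, where 46.9% of all genes lay above 0 and 5.33% were higher at that p. With 1 pig left out the number at that p ranged from 1, without High MB pig 4 or 5 or Low MB pig 1 or 3, to 7, without Low MB pig 6. COL24A1 stood at -0.05 among standard libraries and at -0.12 without High MB pig 1. COL1A1 encodes the more abundant chain of type I collagen. It ran from 96.4 to 185 CPM (median 152) in High MB and from 38.4 to 135 CPM (median 96.7) in Low MB. The groups overlapped, 3 High MB pigs lying above every Low MB pig, and the log2 fold change was 0.67 ± 0.30 (SE; edgeR unadjusted p = 0.0428, adjusted p = 0.578). It was 1.05 among deep and 0.46 among standard libraries. An unadjusted p under 0.05 remained in 5 of 12 fits with 1 pig left out, and with High MB pig 2 and Low MB pig 4 left out the unadjusted edgeR p was 0.0580. COL1A2, the partner chain in the type I trimer, ran from 97.2 to 182 CPM (median 155) in High MB and from 51.2 to 133 CPM (median 87.7) in Low MB, and 4 High MB pigs lay above every Low MB pig. Its log2 fold change was 0.71 ± 0.25 (edgeR unadjusted p = 0.0133, adjusted p = 0.563), and an unadjusted p under 0.05 remained in all 12 fits with 1 pig left out. It was 1.06 among deep libraries and 0.55 among standard libraries, where the unadjusted edgeR p was 0.124.

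COL3A1, whose homotrimers mix with type I fibrils, ran from 253 to 539 CPM (median 420) in High MB and from 112 to 415 CPM (median 282) in Low MB. Here too 3 High MB pigs lay above every Low MB pig. Its log2 fold change was 0.64 ± 0.31 with an edgeR unadjusted p of 0.0561. COL5A2, a chain of the type V collagen that starts type I fibrils, ran from 32.7 to 57.0 CPM (median 46.2) in High MB and from 17.3 to 44.5 CPM (median 34.3) in Low MB. Its log2 fold change was 0.55 ± 0.22 (edgeR unadjusted p = 0.0260), and 0.51 with an unadjusted edgeR p of 0.0594 when High MB pig 2 and Low MB pig 4 were left out. An unadjusted p under 0.05 remained in 7 of 12 fits with 1 pig left out. The other type V chains, COL5A1 and COL5A3, had log2 fold changes of 0.38 and 0.35.

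COL1A1 and COL1A2 lie on chromosomes 12 and 9 and followed each other closely over the 12 pigs. Pearson's r of their log2 CPM was 0.981 (permutation p = 1e-05, the smallest that 100000 resamples can give, adjusted p = 4e-05 over 12 pairs) and Spearman's rho 0.944 (permutation p = 1e-05). Without the 2 pigs farthest from the median of COL1A1, r was 0.976. Within groups r was 0.998 in High MB and 0.975 in Low MB. COL1A1 counts were 0.749 to 1.18 times the COL1A2 counts, and this ratio did not differ detectably between groups (exact permutation p = 0.989). COL3A1 followed COL1A1 with r = 0.979. COL6A1 and COL6A2, which share a trimer, followed each other with r = 0.953. Of 12 pairs examined, 8 had an adjusted permutation p under 0.05 for Pearson's r. COL6A1 and COL1A1 were 1 of these, with r = 0.785, but their rho was 0.448 (permutation p = 0.149, adjusted p = 0.179). Without the 2 farthest pigs, Low MB pigs 1 and 3, their r was 0.347, whereas within High MB, which holds neither, r was 0.850 (exact permutation p = 0.0375) and within Low MB 0.649 (exact permutation p = 0.165). The pooled value thus leans on those pigs, and the value within High MB does not. Some other pairs of the 8 had a lower r within High MB than within Low MB. It was 0.546 (exact permutation p = 0.257) against 0.984 for COL5A1 and COL5A2, and 0.569 (exact permutation p = 0.236) against 0.967 for COL6A3 and COL6A1. For COL5A2 and COL1A2 it was 0.702 (exact permutation p = 0.149) against 0.931.

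Since these promoters belong to genes that varied together, the 250 bases before each annotated start are shown for COL1A1 (chr12:26397181-26397430, minus strand) and COL1A2 (chr9:74174234-74174483, plus strand), with TATAAA and CCAAT on either strand in capitals. They were read from Sscrofa11.1.
COL1A1: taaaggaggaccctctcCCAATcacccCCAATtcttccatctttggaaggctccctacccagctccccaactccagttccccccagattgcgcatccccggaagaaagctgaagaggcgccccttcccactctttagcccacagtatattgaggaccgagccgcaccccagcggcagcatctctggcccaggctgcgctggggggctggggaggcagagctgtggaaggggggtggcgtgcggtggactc
COL1A2: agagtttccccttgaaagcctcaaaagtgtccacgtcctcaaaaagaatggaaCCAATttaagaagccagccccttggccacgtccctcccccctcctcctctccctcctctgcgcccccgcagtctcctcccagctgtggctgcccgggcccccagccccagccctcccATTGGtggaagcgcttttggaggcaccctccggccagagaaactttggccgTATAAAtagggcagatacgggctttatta
CCAAT lies at positions -233 and -223 in COL1A1, and at -197 and, as its reverse complement ATTGG, at -80 in COL1A2, counted in bases before the start. Within these bases TATAAA was found at -29 in COL1A2 and not in COL1A1. All positions rest on the annotated starts, and whether transcription begins there in muscle was not tested. The absence of a match thus holds for the bases shown only. In windows from 250 bases before to 50 after the start, TATAAA was found on either strand in 22.2% of 36 collagen genes and 10.9% of 19559 genes, CCAAT in 41.7% and 35.4%, and GGGCGG in 52.8% and 50.6%. The matches in capitals do not share bases, whereas in other promoters, such as that of COL9A3, CCAAT and its reverse complement can. A match is a description of letters only.

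Basement membrane genes showed no unadjusted p under 0.05. COL4A2, a chain of the main type IV network, ran from 107 to 173 CPM (median 149) in High MB and from 59.8 to 172 CPM (median 113) in Low MB. The groups overlapped widely, and the log2 fold change was 0.33 ± 0.23 (edgeR unadjusted p = 0.175), or 0.19 without Low MB pig 1. COL4A5, a minor chain, ran from 0.982 to 4.16 CPM (median 1.41) in High MB and from 0.669 to 2.69 CPM (median 1.36) in Low MB. It had a log2 fold change of 0.29 ± 0.39, and -0.14 without High MB pig 6. COL4A3 had -0.46 ± 0.55 at 2 to 51 counts per pig, and -0.20 without High MB pig 2. COL4A2 overlaps COL4A1 by 525 bases head to head and COL4A3 overlaps COL4A4 by 663 bases, and the strand setting of the counting is not stated, so reads in the overlaps cannot be placed.

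Of 7 network genes tested, 6 had log2 fold changes above 0, against 46.9% of all genes, with a median of 0.30 that lay between 0.15 (without Low MB pig 1) and 0.51 (without Low MB pig 4). COL6A1, a chain of the beaded filaments around fibres, ran from 107 to 139 CPM (median 132) in High MB and from 62.9 to 141 CPM (median 96.1) in Low MB. A single Low MB pig, pig 4, exceeded all High MB pigs, and 5 Low MB pigs lay below every High MB pig. The log2 fold change was 0.37 ± 0.16 (edgeR unadjusted p = 0.0354). It was 0.50, with an unadjusted edgeR p of 0.00408, when High MB pig 2 and Low MB pig 4 were left out, 0.63 among deep libraries, and 0.21 among standard libraries with an unadjusted edgeR p of 0.322. An unadjusted p under 0.05 remained in 5 of 12 fits with 1 pig left out. COL6A3, the large chain of the same filaments, ran from 101 to 243 CPM (median 129) in High MB and from 52.8 to 180 CPM (median 107) in Low MB. Its log2 fold change was 0.40 ± 0.27 (edgeR unadjusted p = 0.164). High MB pig 2 was the highest of all pigs, and without it the log2 fold change was 0.21. COL6A6 was low, at 0.976 to 4.92 CPM (median 2.48) in High MB and 0.590 to 2.66 CPM (median 1.25) in Low MB, with a log2 fold change of 1.03 ± 0.44 (edgeR unadjusted p = 0.0331, exact permutation p = 0.0801) and an unadjusted edgeR p under 0.05 in 6 of 12 fits with 1 pig left out.

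Fibril-associated genes went in both directions. Their summed level was 161 ± 35.4 CPM in High MB and 197 ± 31.1 CPM in Low MB (SD, n = 6). COL14A1, which binds fibrils and is rich in mature connective tissue, made up most of it. It ran from 100 to 199 CPM (median 143) in High MB and from 158 to 237 CPM (median 172) in Low MB, with 4 High MB pigs below every Low MB pig. The log2 fold change was -0.36 ± 0.16 (edgeR unadjusted p = 0.0380, adjusted p = 0.576). It lay between -0.47 and -0.25 with any 1 pig left out, and an unadjusted p under 0.05 remained in 5 of those 12 fits. It was -0.16 among deep libraries (unadjusted edgeR p of 0.476) and -0.38 among standard libraries (unadjusted edgeR p of 0.0595). With High MB pig 2 and Low MB pig 4 left out it was -0.28, with an unadjusted edgeR p of 0.0828.

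COL12A1, a large fibril-bound collagen, went the other way. It ran from 3.33 to 7.21 CPM (median 6.19) in High MB and from 2.98 to 3.90 CPM (median 3.46) in Low MB, and 5 of 6 High MB pigs lay above every Low MB pig, the exception being pig 5. The log2 fold change was 0.73 ± 0.18 (edgeR unadjusted p = 0.00117, adjusted p = 0.563; exact permutation p = 0.0108), 0.90 among deep and 0.65 among standard libraries. DESeq2 gave it an adjusted p of 0.0661. The study lists COL12A1 as changed in these same pigs, so this is not independent evidence of its direction.

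The opposite directions of the 2 fibril-associated genes met in their ratio, shown in the plot of COL12A1 and COL14A1. COL12A1 counts per COL14A1 count ran from 0.0244 to 0.0718 (median 0.0389) in High MB and from 0.0143 to 0.0232 (median 0.0195) in Low MB, and the groups did not overlap. The log2 ratio differed by 1.06 (exact permutation p = 0.00216, the smallest 6 against 6 pigs allow, adjusted p = 0.0260 over 12 ratios). The difference was 1.06 among deep and 1.00 among standard libraries and lay between 0.89 and 1.20 with any 1 pig left out, with an exact permutation p of at most 0.00433. The groups did not overlap in any of these 12 fits. The adjusted p was 0.0519 without Low MB pig 1, 3, 4, 5 or 6, and at most 0.0390 without any other pig. With High MB pig 2 and Low MB pig 4 left out the difference was 0.90, the groups again did not overlap, and the exact permutation p was 0.00794, the smallest that 5 against 5 pigs allow (adjusted p = 0.0952). COL14A1 per COL1A1 was lower in High MB by 1.15 on the log2 scale, at an exact permutation p of 0.0108 and an adjusted p of 0.0649. The other 10 ratios had adjusted p-values from 0.681 to 0.989. The study lists COL12A1 as changed in these same pigs, so its ratio to COL14A1 is not independent evidence of a difference. How often ratios of gene pairs outside these 12 leave the groups without overlap was not tested.

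**Figure D5:**
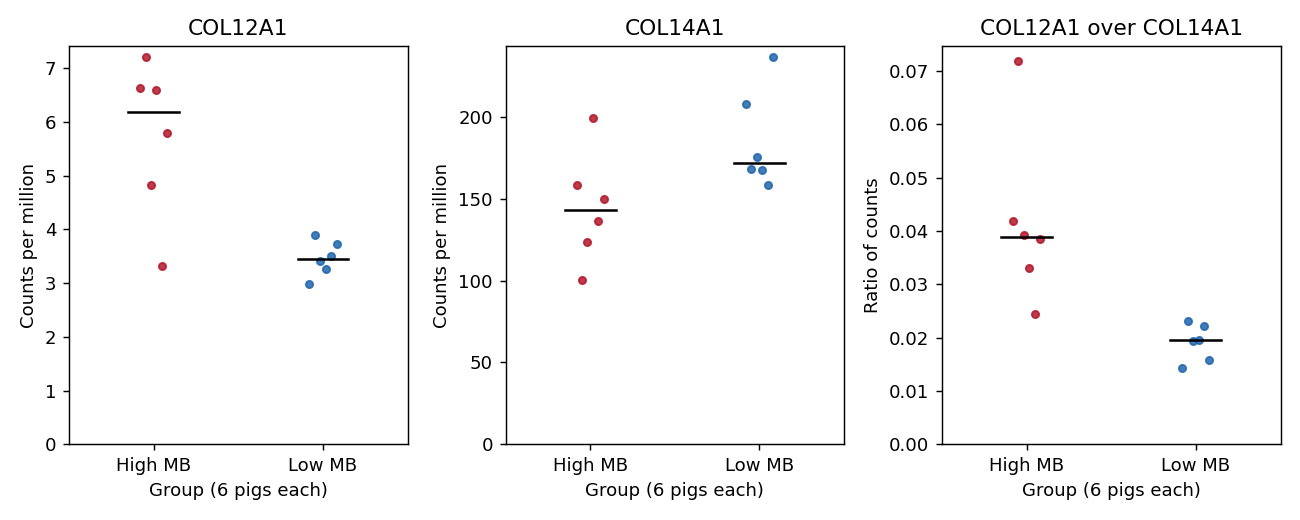
COL12A1 and COL14A1 in CPM and their ratio of counts, with 1 point per pig and the group median as a bar. The ratio ranges from 0.0244 to 0.0718 in High MB and from 0.0143 to 0.0232 in Low MB, with no overlap.

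COL16A1, a minor fibril-associated chain, ran from 6.39 to 11.2 CPM (median 8.20) in High MB and from 4.36 to 8.26 CPM (median 5.98) in Low MB, with 3 High MB pigs above every Low MB pig and a log2 fold change of 0.48 ± 0.18 (edgeR unadjusted p = 0.0191). COL22A1, which marks myotendinous junctions, had the largest fold change, 2.20 ± 0.85 (edgeR unadjusted p = 0.0205), but its exact permutation p was 0.318. It ran from 0.0734 to 6.10 CPM (median 0.818) in High MB, with pig 6 at the top, and from 0.103 to 0.541 CPM (median 0.375) in Low MB. Without High MB pig 6 its log2 fold change was 0.99. COL21A1 had -0.29 ± 0.31, and -0.12 without Low MB pig 6.

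The multiplexins COL15A1 and COL18A1, which lie at the border of basement membranes, had log2 fold changes of 0.25 ± 0.23 and 0.43 ± 0.24. COL15A1 ran from 47.9 to 94.3 CPM (median 82.9) in High MB and from 37.6 to 102 CPM (median 61.5) in Low MB, so the groups overlapped widely, and its fold change lay between 0.14 (without Low MB pig 3) and 0.41 (without Low MB pig 5). COL18A1 ran from 13.6 to 40.1 CPM (median 18.0) in High MB and from 11.5 to 19.9 CPM (median 15.3) in Low MB. High MB pig 6 stood at the top, against at most 20.8 CPM in the other pigs, and without it the log2 fold change of COL18A1 was 0.14. It was 0.86 among deep and 0.23 among standard libraries. The transmembrane genes COL13A1, COL17A1 and COL23A1 had 0.62 ± 0.51, 0.18 ± 0.14 and -0.20 ± 0.43. COL13A1 stood at 1.58 among deep libraries, -0.18 among standard libraries and 0.11 without High MB pig 6, and COL23A1 at 0.20 among deep libraries and -0.69 without High MB pig 6.

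Among the enzymes and chaperones that process collagen, 29 of 32 listed genes were tested and none passed the adjusted p. At an unadjusted p under 0.05, 5 were higher in High MB (17.2% against 5.33% of all genes) and 1, MIA3, was lower (3.45% against 3.13%), and the median log2 fold change was 0.25, or 0.11 without High MB pig 2. The number with an unadjusted p under 0.05 in either direction, 6 with all pigs, ranged from 3 without High MB pig 5 to 8 without High MB pig 2. Those higher were ADAMTS2, which trims procollagen (0.75 ± 0.25), LOX, which cross-links fibrils (0.68 ± 0.24), PCOLCE2 (0.65 ± 0.29) and PCOLCE (0.62 ± 0.21), which enhance procollagen cleavage, and FKBP10, a folding chaperone (0.48 ± 0.21). ADAMTS2, LOX and PCOLCE kept an unadjusted p under 0.05 in all 12 fits with 1 pig left out, FKBP10 in 5 and PCOLCE2 in 4. PCOLCE2 stood at 1.26 among deep and 0.25 among standard libraries.

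Of the cleavage list, 4 of 10 genes were tested, all with log2 fold changes above 0 and none past the adjusted p. The matrix metalloproteinases MMP2 and MMP14 had 0.63 ± 0.24 and 0.51 ± 0.23, with an unadjusted p under 0.05 in 12 and 3 of the 12 fits with 1 pig left out. TIMP1, an inhibitor of matrix metalloproteinases, had 1.87 ± 0.73, but this value rests on High MB pig 2. That pig stood at 87.6 CPM, against 4.54 to 7.05 CPM in the other High MB pigs and 3.73 to 7.76 CPM in Low MB. Without that pig it was 0.08, with an unadjusted edgeR p of 0.731. Of 9 receptors tested 6 had log2 fold changes above 0 (median 0.18, or -0.02 without High MB pig 2), and of 13 regulators 4 did (median -0.07), 30.8% against 46.9% of all genes. Among the receptors 1 was higher and none lower at an unadjusted p under 0.05, and among the regulators 1 was higher and 1 lower, each a single gene, where 5.33% of all genes were higher and 3.13% lower.

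Markers of fibroblasts, adipocytes, macrophages and tendon also had positive log2 fold changes, where 46.9% of all genes did, and none passed the adjusted p. All 7 fibroblast markers lay above 0 (median 0.52), 4 of them with an unadjusted p under 0.05 against 5.33% of all genes, and their summed level ran from 562 to 872 CPM in High MB and from 437 to 656 CPM in Low MB. All 5 adipocyte markers lay above 0 (median 0.90), 2 of them, FABP4 and CIDEC, with an unadjusted p under 0.05, at 55.3 to 228 CPM in High MB and 35.8 to 199 CPM in Low MB. The 5 macrophage markers lay above 0 (median 0.93), 3 of them with an unadjusted p under 0.05, at 32.1 to 103 and 19.9 to 41.6 CPM. The 3 tendon markers tested lay above 0 (median 0.66), 2 of them with an unadjusted p under 0.05, at 55.3 to 141 and 41.8 to 85.3 CPM. Without High MB pig 2 the median of the macrophage markers was 0.49, with 1 of 5 at an unadjusted p under 0.05. CD14, which gave the median with all pigs, then stood at 0.09, CD68 at 0.07 in place of 0.40, MRC1 at 0.59 in place of 0.98 and CD163 at 0.55 in place of 1.09. CD14 lay at 17.6 CPM in that pig and at most at 3.83 CPM in the other High MB pigs. The fibroblast marker PDGFRA went from 0.91 to 0.52 without the same pig. With 1 pig left out the number of adipocyte markers with an unadjusted p under 0.05 ranged from 1 to 5, CIDEC being among them in 4 of 12 fits, and their median was 1.44 without Low MB pig 5. For fibroblast markers that number ranged from 3 to 6, for macrophage markers from 1 to 4 and for tendon markers from 1 to 2. Without High MB pig 6 the tendon marker FMOD moved from 0.74 to 0.46. No marker of these 4 lists was at 0 counts in every pig, and their part in the collagen differences was not tested. The muscle fibre markers ACTA1, CKM and TNNT3 were highly expressed in every pig, at a summed 31576 to 108797 CPM, and had log2 fold changes below 0 (ACTA1 -0.24, CKM -0.17 and TNNT3 -0.03), none with an unadjusted p under 0.05. TNNT3 lay above 0 without Low MB pig 1 or 5 and without High MB pig 2, where it was 0.10. The list held 8 genes, and MB, MYH1, MYH2, MYH4 and MYH7 were not analysed here. The median of the 3 genes was -0.17, or -0.01 without High MB pig 2.

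Within groups, 11 collagen genes were set against myoglobin content, giving 22 relations. In the Low MB group COL1A2 had r = -0.864 (exact permutation p = 0.0375, rho = -0.943) with an adjusted p of 0.479, r being -0.697 without the 2 farthest pigs. In the High MB group the same gene had r = 0.160 (exact permutation p = 0.746) and rho = 0.371. Its r was 0.862 there without the 2 farthest pigs. Values of r without 2 of the 6 pigs of a group rest on few pigs and were not tested. A positive r was found for 7 of 11 genes in High MB against 2 of 11 in the Low MB group. No relation passed the correction. Against the breeding value 6 relations had an unadjusted exact permutation p under 0.05 and the smallest adjusted p was 0.0611. Here r was positive for 1 of 11 genes in High MB and for 0 of 11 in Low MB. It was thus negative within groups for most of these genes, although 10 of the 11 had a log2 fold change above 0 between the groups. Without the 2 farthest pigs r turned positive for COL4A2 in High MB (0.109) and for COL14A1 (0.883) and COL15A1 (0.0704) in Low MB. It turned negative for COL12A1 in High MB (-0.0456). The share of all genes with a negative r was not computed. In High MB pigs, COL5A1 had r = -0.958 (exact permutation p = 0.00278), and COL1A1 r = -0.957 (exact permutation p = 0.00833). The 2 deep libraries of that group, pigs 4 and 6, had its lowest breeding values, 0.168 and 0.159. Depth class and breeding value thus ran together in High MB, and their parts were not tested.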

How the data were processed

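RNA of longissimus dorsi from 12 pigs was sequenced as paired 150-base reads. Per the labels and the study's methods, the authors trimmed with Trim Galore, mapped against Sscrofa11.1 by HISAT2, and deposited HTSeq gene counts as raw whole numbers. The annotation release, tool versions and strand setting are not given in the sources used here. Of the reads counted in a gene, in no feature or as ambiguous, on average 51.6% fell in no feature. Reads in no feature were left out of library sizes. Transcript counts were not used here.

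Genes were filtered with filterByExpr, scaled by TMM and tested with the quasi-likelihood test of edgeR 4.0.16 (R 4.3.3), High MB against Low MB, with Benjamini-Hochberg adjustment. DESeq2 1.42.0 was an alternative. The standard error came from the test statistic. CPM used TMM library sizes. A prior count of 2 was added before taking log2 CPM. Single genes, count ratios (at least 10 counts in every pig) and correlations were compared by two-sided exact permutation tests or 100000 resamples. Scripts were tested on simulated data. Gene models, exons and promoters came from RefSeq, joined by symbol for 37 of 38 genes. Described in full are the 2 genes of highest mean CPM in each type (multiplexins with transmembrane genes), those with an unadjusted p under 0.05, and COL12A1. Members and lists were chosen with earlier results of these data known. Depth limits genes under about 10 counts. Other size factors, filters, thresholds, a depth covariate, the individual number as a block, and subsets of the pigs were tried.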

Additional observations from a re-analysis of the deposited data

Results flagged for a closer look

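The levels of the genes described in full and the chain ratios made 54 groups of 6 pigs, and in each the gap between the highest or lowest pig and its neighbour was divided by the range of the group (Dixon's ratio). In 4 groups a single High MB pig stood farther from the others than the 95% limit for 6 samples allows, where chance alone passes that limit in about 1 in 20 groups. In 3 of them it was High MB pig 6, the largest library. COL18A1 reached 40.1 CPM in that pig and 13.6 to 20.8 CPM in the other High MB pigs (Dixon's ratio 0.729), COL22A1 6.10 CPM against 0.0734 to 1.65 CPM (0.739), and COL4A5 4.16 CPM against 0.982 to 1.74 CPM (0.763). The fourth was the ratio of COL12A1 to COL14A1 counts, 0.0718 in High MB pig 2 and 0.0244 to 0.0419 in the other High MB pigs (0.632). On the log2 scale none of the same 54 groups held such a pig.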

How the results depend on the processing

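The direction of the log2 fold change of 14 of the 15 genes described in full was the same under all alternatives in which it was tested. COL4A5 ranged from -0.14 to 0.54 with 1 pig left out, the negative value being without High MB pig 6, the largest library. The median log2 fold change over the collagen genes tested stayed between 0.26 and 0.59. DESeq2 called 29 genes in place of 0, and 1 collagen gene, COL12A1, in place of 0; the deep libraries alone gave 1 called gene, and no other alternative called any gene. The number of collagen genes with an unadjusted p under 0.05, 9 with all pigs, ranged from 3 to 12 with 1 pig left out, lowest without High MB pig 6, and was 3 among the standard libraries. It was 4 without High MB pig 5, Low MB pig 1 or Low MB pig 3 and 5 without High MB pig 4. The number lower in High MB, 5 with all pigs, was 9 with no filter, 3 with at least 10 counts in every pig, 9 among standard libraries, and 4 to 8 with 1 pig left out. Genes with an exact permutation p under 0.05, 6 with all pigs, ranged from 1 to 9 with 1 pig left out. Ratios with an adjusted p under 0.05, 1 with all pigs, were 0 without High MB pig 2 and Low MB pig 4, where the smallest exact permutation p of 5 against 5 pigs is 0.00794. They ranged from 0 to 2 with 1 pig left out, and were 0 without Low MB pig 1, 3, 4, 5 or 6, where the ratio of COL12A1 to COL14A1 had an adjusted exact permutation p of 0.0519 and groups without overlap. The cause of the other shifts was not tested. Individual numbers did not pair the pigs: the correlations of deviations of same-numbered pigs ran from -0.21 to 0.14. With the number as a replicate block, 13 collagen genes had an unadjusted p under 0.05, 25 were higher, 7 lower, none was called, and 4 passed the sign-flip test over 6 pairs.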

Other observations

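Other marker lists gave these values, where over all genes 46.9% had a log2 fold change above 0 and 5.33% were higher in High MB at an unadjusted p under 0.05. The 4 endothelial markers tested had log2 fold changes above 0 with a median of 0.26, and the 5 pericyte and smooth muscle markers a median of 0.36, neither list with an unadjusted p under 0.05 in any gene. Without High MB pig 6 the pericyte and smooth muscle median was 0.21, and the smooth muscle genes ACTA2 and MYH11 turned from 0.36 and 0.86 to -0.36 and -0.66, that pig being at 203 and 216 CPM against at most 55.9 and 24.2 CPM in the other High MB pigs. The endothelial median was 0.15 without Low MB pig 1. The Schwann list, 3 genes tested, had a median of 0.05, or -0.25 without High MB pig 4, and the 2 satellite cell markers -0.09, or 0.10 without Low MB pig 5. Both erythrocyte markers had an unadjusted p under 0.05, HBB with a log2 fold change of 0.78 ± 0.23 and ALAS2 with 0.71 ± 0.26 (SE), although for ALAS2 this did not hold without High MB pig 5. None of these genes passed the adjusted p. Of 4 cartilage markers 2 were tested, and COMP had a log2 fold change of 3.11 ± 1.28 at 0 to 833 counts per pig, and 2.19 without High MB pig 6. The other, SOX9, had -0.66 ± 0.52.

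6 collagen genes below the filter had between 0 and 35 counts in any pig. COL2A1 and COL9A1, genes of cartilage, were at most 15 and 6 counts.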
